A study of Saccharomyces cerevisiae with 6 samples.

Results

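Ribonucleotide reductase makes deoxyribonucleotides, the building blocks of DNA, and the data described here are the transcript levels of its 4 subunit genes and of 6 genes that control it in budding yeast. The 10 genes, RNR1, RNR2, RNR3, RNR4, SML1, DUN1, HUG1, DIF1, CRT10 and RFX1, were taken by name from a table of 6400 named genes, and all 10 were found. Poly(A) RNA of Saccharomyces cerevisiae was sequenced in 6 libraries of the laboratory strain w303, with replicates A and B for T1, for T2 and for T3, so 2 libraries a group. All 6 titles mark arrested cultures, and the series describes populations of 3 different mean cell sizes. The labels give no size, time, genotype, agent or way of arrest for a group, so the groups are compared by name. Nothing in the labels says that replicates A and B came from separate cultures, so p-values measure the spread between these libraries, which may be technical. Values are TPM, a relative abundance per gene length, and the amount of RNA per cell cannot be read from them. In bulk cultures, a change in the share of cells that express a gene and a change in its RNA per cell cannot be told apart.

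The enzyme joins large subunits, which hold the active site and the sites where nucleotides regulate it, to small subunits, which hold an iron centre and a tyrosyl radical. In yeast, Rnr1 is the main large subunit and Rnr3 an alternative one, and Rnr2 and Rnr4 form the small subunit together. RNR1 is transcribed around the entry into S phase through MBF, a factor that binds the MCB element. RNR2, RNR3, RNR4 and HUG1 are repressed by Rfx1, also named Crt1, which binds X-box elements and recruits the corepressor of Tup1 and Cyc8. After DNA damage the kinase Dun1 acts below Mec1 and Rad53. It lifts repression by Rfx1 and leads to removal of the inhibitor Sml1 and of Dif1, which brings the small subunits into the nucleus.

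The promoters were read from the RefSeq genome of the reference strain S288C (build R64), not from w303, and the stretches that hold matches to 2 elements known from these genes are shown. Both strands of the 500 bases before each start codon were searched for the MCB core ACGCGT and for the X-box half-site GGCAAC, which do not overlap one another. The stretches are printed 5′ to 3′ on the strand of the gene, with matches on either strand in capitals.
RNR1, chrV:298450-298659: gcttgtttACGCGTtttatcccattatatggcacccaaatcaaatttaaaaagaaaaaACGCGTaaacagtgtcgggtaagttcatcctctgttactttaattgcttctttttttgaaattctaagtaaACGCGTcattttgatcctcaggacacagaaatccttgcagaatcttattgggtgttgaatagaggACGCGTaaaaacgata
DUN1, chrIV:281996-282021: acgtgacgcgACGCGTttgtttactt
RNR2, chrX:391918-392052: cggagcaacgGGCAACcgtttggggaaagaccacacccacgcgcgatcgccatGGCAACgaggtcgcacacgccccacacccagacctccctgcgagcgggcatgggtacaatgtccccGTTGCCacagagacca
RNR4, chrVII:856672-856697: gcgttgttgtGGCAACaccatcctct
RNR3, chrIX:240880-240989: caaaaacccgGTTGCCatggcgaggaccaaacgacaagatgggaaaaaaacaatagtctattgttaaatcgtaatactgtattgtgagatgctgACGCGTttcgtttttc
HUG1, chrXIII:158537-158609: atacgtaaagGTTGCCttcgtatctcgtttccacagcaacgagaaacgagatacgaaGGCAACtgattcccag
RNR1 held 4 MCB cores, and no other of the 5966 promoters searched held 3 or more. At least 1 MCB core was found in 5.43% of all promoters, and in those of RNR1, RNR3 and DUN1 among the 10 genes. RNR2 held 3 X-box half-sites, a number reached by 0.0838% of all promoters, HUG1 held 2, and RNR1, RNR3 and RNR4 held 1 each. At least 1 half-site was found in 13.7% of all promoters. The half-site of RNR1, at positions -169 to -164 from the start codon, lies outside the stretch shown. The promoters of SML1, DIF1, CRT10 and RFX1 held neither of these 6-base strings in this window. The matches of RNR2 lie within the annotated open reading frame YJL027C, which covers 346 of its 500 bases. The matches are descriptions of sequence, and binding was not measured.

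**Figure D1:**
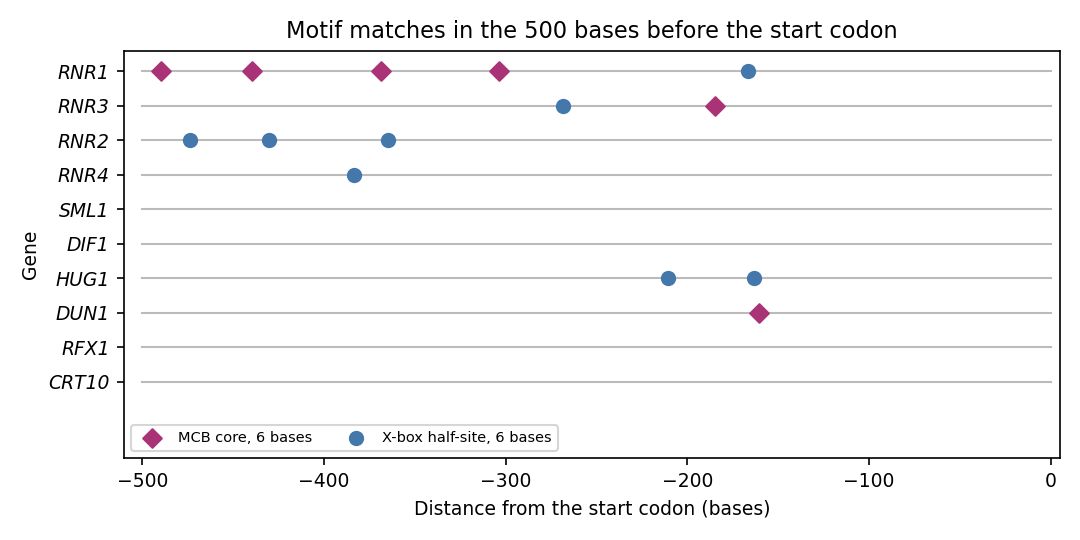
Positions of matches to the MCB core (diamonds) and the X-box half-site (circles), on either strand, in the 500 bases before the start codon of each gene; the x axis is the distance from the start codon in bases. RNR1 has 4 MCB cores, RNR2 has 3 X-box half-sites, and SML1, DIF1, CRT10 and RFX1 have no match.

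Transcripts of the main large subunit showed the largest fold change of the 10 genes in each of the 3 pairs of groups. RNR1 (YER070W, chromosome V, 298950 to 301616, plus strand, R64) lay at 12.4 and 17.3 TPM in T1, 45.7 and 56.4 TPM in T2, and 107.8 and 101.8 TPM in T3. Every T2 library was above both T1 libraries, and both T3 libraries were above those of T2. Relative to open reading frames as a whole, its mean level moved from percentile 24.6 in T1 to percentile 63 in T2 and 78.7 in T3. RNR1 rose 6.77-fold from T1 to T3 on the log2(TPM + 1) scale (log2 change 2.76, SE 0.14, limma adjusted p = 8.73e-09), larger than 99.9% of the changes of the 6046 genes tested. It rose 3.31-fold from T1 to T2 (log2 change 1.73, SE 0.14, limma adjusted p = 3.25e-06) and 2.04-fold from T2 to T3 (log2 change 1.03, SE 0.14, limma adjusted p = 0.000245). The later step minus the earlier one was -0.70 (log2, SE 0.24), which did not pass (limma adjusted p = 0.241). With 1 library omitted this difference ran from -0.99 to -0.40, the latter without T2 replicate B (limma adjusted p = 0.575). Without T1 replicate B it was -0.92 and passed (limma adjusted p = 0.000894). The adjusted p of this difference ran from 0.000894 to 0.575 across the 15 fits made. Without T1 replicate B limma pooled the spread over all genes without limit, so that p may be too small.

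RNR3, the alternative large subunit, which is known for its strong induction by DNA damage, stayed low. RNR3 (YIL066C, chromosome IX, 238099 to 240708, minus strand) lay at 4.68 and 4.88 TPM in T1, 4.48 and 6.01 TPM in T2, and 6.20 and 6.14 TPM in T3. The T3 libraries were the highest, and those of T1 and T2 overlapped. Its log2 change from T1 to T3 was 0.31 (95% interval -0.06 to 0.68), which missed the threshold (limma adjusted p = 0.155). The interval of RNR1 for the same comparison, 2.46 to 3.06, lies above it. RNR1 and RNR3 are 77.1% identical over 2607 aligned bases, with a longest shared run of 38 bases, shorter than the read length of 150 bases. RNR3 rested on 306 to 501 fragments per library.

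The small subunit genes rose together and less steeply. RNR2 (YJL026W, chromosome X, 392404 to 393603, plus strand) lay at 156.5 and 162.3 TPM in T1, 196.5 and 211.4 TPM in T2, and 268.5 and 269.4 TPM in T3. RNR4 (YGR180C, chromosome VII, 855264 to 856301, minus strand) lay at 191.8 and 214.3 TPM in T1, 235.2 and 260.1 TPM in T2, and 348.9 and 369.0 TPM in T3. For both genes the groups followed each other without overlap. From T1 to T3, RNR2 rose 1.68-fold (log2 change 0.75, SE 0.09, limma adjusted p = 1.16e-05) and RNR4 rose 1.77-fold (log2 change 0.82, SE 0.09, limma adjusted p = 9.55e-06). From T2 to T3, RNR2 rose 1.32-fold (limma adjusted p = 0.00571) and RNR4 rose 1.45-fold (limma adjusted p = 0.00142). The RNR2 call for this step was lost when T2 replicate A was omitted (adjusted p = 0.0624; lowest over all fits, 0.00103). With quantile normalization its log2 change for this step was 0.26 in place of 0.40. From T1 to T2, RNR2 rose 1.28-fold (limma adjusted p = 0.0136), and RNR4 had a log2 change of 0.29 just outside the threshold (limma adjusted p = 0.0509). For this first step, RNR2 did not pass without T1 replicate A (0.0563) or T2 replicate B (0.105), in a range of 0.00659 to 0.105. RNR4 did pass with the replicate letter as a block (0.0443), with median-of-ratios scaling (0.04), among genes of at least 10 TPM (0.0306) and without T1 replicate B (0.0288), in a range of 0.0288 to 0.27.

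**Figure D2:**
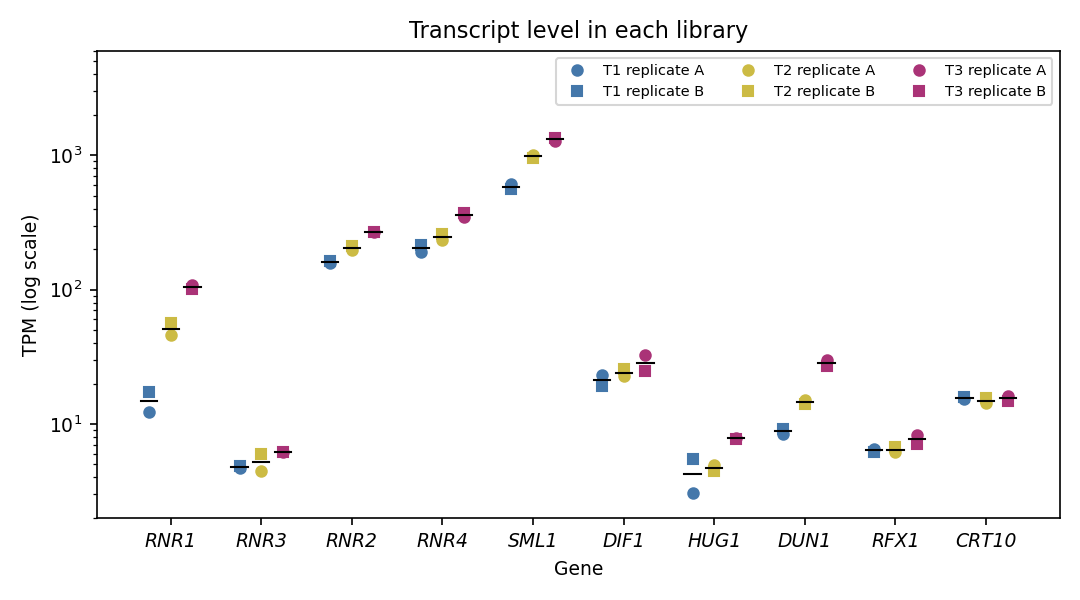
TPM of each gene in each library on a log scale, with circles for replicate A, squares for replicate B, colours for the groups and black bars for group means. RNR1 moves from 12.4 and 17.3 TPM in T1 to 107.8 and 101.8 TPM in T3, while CRT10 stays between 14.2 and 16.2 TPM in all 6 libraries.

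The ratio of large to small subunit transcripts shifted, while the ratio within the small subunit moved little. TPM is per length, so levels can be compared between genes, but only roughly where lengths differ widely. The values follow whole annotated lengths, and SML1 has 315 bases where RNR1 has 2667. The ratio of RNR1 to RNR2 came to 0.0790 and 0.106 for T1, 0.232 and 0.267 for T2, and 0.401 and 0.378 for T3, with no overlap between groups. RNR2 to RNR4 stood at 0.816 and 0.757 in T1, 0.836 and 0.813 in T2, and 0.770 and 0.730 in T3, and the values of T1 and T3 overlapped. RNR3 made up 27.5% and 22.0% of large subunit transcripts (RNR1 plus RNR3) in T1, 8.94% and 9.63% in T2, and 5.44% and 5.69% in T3. RNR3 itself passed no test in either direction. Small subunit transcripts (RNR2 plus RNR4) outnumbered those of the large subunit by ratios of 20.4 and 17.0 in T1, 8.61 and 7.56 in T2, and 5.42 and 5.91 in T3. All of these ratios are values only and were not tested. On the log2 scale with a pseudocount of 1, the means were -3.36, -1.99 and -1.35 for RNR1 to RNR2 in T1, T2 and T3, -0.35, -0.28 and -0.41 for RNR2 to RNR4, and -1.43, -3.06 and -3.88 for RNR3 to RNR1.

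**Figure D3:**
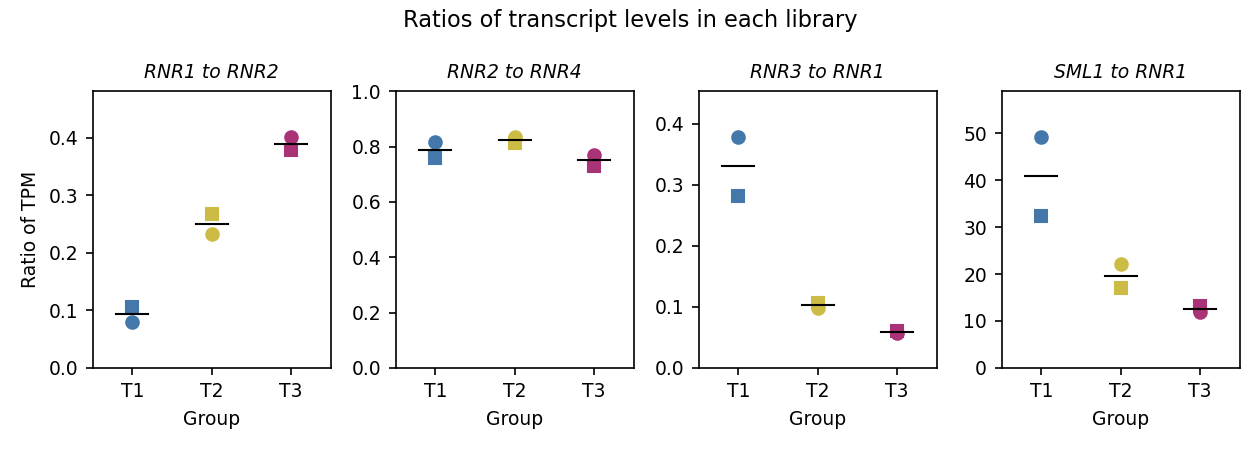
Ratios of TPM in each library by group, with circles for replicate A, squares for replicate B and black bars for the mean of the group; each panel has its own axis from 0. RNR1 to RNR2 runs from 0.0790 to 0.401, RNR3 to RNR1 and SML1 to RNR1 are lowest in T3, and RNR2 to RNR4 stays between 0.730 and 0.836.

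SML1 encodes the small protein that binds Rnr1 and inhibits the enzyme, and it was the most abundant of the 10 transcripts in every library. SML1 (YML058W, chromosome XIII, 159383 to 159697, plus strand) lay at 608.9 and 560.5 TPM in T1, 1007 and 960.8 TPM in T2, and 1279 and 1346 TPM in T3. The groups did not overlap. SML1 rose 2.24-fold from T1 to T3 (log2 change 1.17, SE 0.08, limma adjusted p = 8.08e-08), 1.68-fold from T1 to T2 (limma adjusted p = 3.52e-05) and 1.33-fold from T2 to T3 (limma adjusted p = 0.0024). Its transcripts exceeded those of RNR1 by ratios of 49.3 and 32.4 in T1, 22.1 and 17.0 in T2, and 11.9 and 13.2 in T3. Transcripts of the inhibitor and of its target both rose, and the ratio between them was lowest in T3. This last ratio was chosen after the values were seen and was not tested.

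DIF1 and HUG1 encode small proteins that act on the small subunit, and both had weaker signals. DIF1 (YLR437C, chromosome XII, 1011622 to 1012023, minus strand) lay at 23.1 and 19.3 TPM in T1, 22.7 and 25.5 TPM in T2, and 32.6 and 24.6 TPM in T3. The T3 replicates lay apart, T3 overlapped T2, and T2 overlapped T1. DIF1 rose 1.33-fold from T1 to T3 (log2 change 0.41, SE 0.14, limma adjusted p = 0.0244). It missed the threshold with median-of-ratios scaling (0.0925), quantile normalization (0.128), no abundance trend (0.0573), T1 replicate B omitted (0.0959) and T3 replicate A omitted (0.301), with 0.000951 as the lowest value over all fits. Its log2 change ran from 0.21, without T3 replicate A, to 0.60 when 1 library was omitted. Neither step passed the test for DIF1 (limma adjusted p = 0.398 for T2 against T1 and 0.263 for T3 against T2).

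HUG1 (YML058W-A, chromosome XIII, 158760 to 158966, plus strand), a short gene that lies 416 bases before SML1 on the same strand and is known for induction by DNA damage, lay at 3.04 and 5.45 TPM in T1. It lay at 4.99 and 4.47 TPM in T2 and at 7.88 and 7.73 TPM in T3. The T3 libraries stood above the other 4, and T1 spanned T2. HUG1 rested on 19 to 50 fragments per library, which gives a counting error of up to 22.9% in a library. It rose 1.72-fold from T1 to T3 (log2 change 0.79, SE 0.21, limma adjusted p = 0.00654) and 1.54-fold from T2 to T3 (log2 change 0.62, SE 0.21, limma adjusted p = 0.045). Its call for T3 against T1 was lost after quantile normalization (0.0572) and without T1 replicate A (0.08), in a range of 5.28e-06 to 0.08. For T3 against T2 the call was lost in 10 of 14 other settings, among them the replicate block (0.0553) and quantile normalization (0.14). It was kept with a pseudocount of 5, without T1 replicate A, without T1 replicate B and with only T2 and T3 fitted. Except with the pseudocount of 5, limma pooled the spread over all genes without limit in these fits, so their p-values may be too small. The log2 change from T1 to T3 was 0.45 without T1 replicate A and 1.12 without T1 replicate B. With a pseudocount of 5 it was 0.48 from T1 to T3 and 0.40 from T2 to T3.

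DUN1 is the gene of the checkpoint kinase that controls the enzyme's inhibitors and repressor. From T1 to T3 and from T2 to T3, DUN1 had the largest rise after RNR1 among the 10 genes. From T1 to T2, SML1 rose more than DUN1. DUN1 (YDL101C, chromosome IV, 280307 to 281848, minus strand) lay at 8.36 and 9.22 TPM in T1, 15.0 and 14.2 TPM in T2, and 30.1 and 27.1 TPM in T3. The groups did not overlap. DUN1 rose 3.02-fold from T1 to T3 (log2 change 1.60, SE 0.12, limma adjusted p = 1.47e-07), 1.60-fold from T1 to T2 (limma adjusted p = 0.00134) and 1.89-fold from T2 to T3 (limma adjusted p = 0.000147). Its promoter window is the only one of the 10 besides those of RNR1 and RNR3 that holds an MCB core, printed above. That window runs into the neighbouring gene YDL100C for 237 of its 500 bases.

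The transcriptional regulators of the group moved least from T1 to T3. RFX1 (YLR176C, chromosome XII, 507797 to 510232, minus strand), the repressor gene, lay at 6.51 and 6.20 TPM in T1, 6.17 and 6.71 TPM in T2, and 8.27 and 7.12 TPM in T3. The T3 libraries were above the other 4, but the log2 change from T1 to T3 was 0.24 (95% interval -0.08 to 0.56, limma adjusted p = 0.208), which missed the threshold. CRT10 (YOL063C, chromosome XV, 207392 to 210265, minus strand), a gene identified through its effect on transcription of RNR2 and RNR3, lay at 15.4 and 16.0 TPM in T1, 14.2 and 15.5 TPM in T2, and 16.2 and 14.8 TPM in T3. All 3 groups of CRT10 overlapped. Its log2 change from T1 to T3 was -0.02 (95% interval -0.27 to 0.23, limma adjusted p = 0.903).

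Counted together, 7 of the 10 genes rose from T1 to T3 and 0 fell. Of all 6046 genes tested, 48% were called in that comparison, 31% as higher and 16.9% as lower. From T1 to T2, 4 of the 10 rose and 0 fell, against 18% of all genes called, 11.9% as higher and 6.1% as lower. From T2 to T3, 6 of the 10 rose and 0 fell, against 21.9% called, 15.8% as higher and 6.09% as lower. The pairs of groups share libraries, so these counts are not independent of one another. RNR1, RNR2, SML1 and DUN1 rose in both steps, as did 6.33% of genes tested. RNR1, RNR2, RNR4, SML1 and DUN1 had libraries ordered T1 below T2 below T3 without overlap, which held for 20.2% of genes tested.

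Overlap of libraries gave a further count. T3 lay wholly above T1 in 9 of the 10 genes, all but CRT10, beside 45.7% of genes tested, and wholly below it in 0, beside 29.3%. T2 lay wholly above T1 in 5, beside 32.3%, and below in 0, beside 24.3%. T3 lay wholly above T2 in 8, all but DIF1 and CRT10, beside 40.9%, and below in 0, beside 21.4%. The median log2 change of the 10 genes from T1 to T3 was 0.77, beside 0.09 over all genes tested. From T1 to T2 it was 0.23 beside 0.02, and from T2 to T3 it was 0.41 beside 0.07. For the difference between the steps, 0 of 10 passed in limma, against 1.08% of genes tested (0.761% higher and 0.314% lower). At an unadjusted limma p under 0.05 there were 2 of 10, RNR1 with 0.013 and SML1 with 0.0289, beside 12.9% of genes tested. Rescaling changed the balance of all calls. Of the genes called in T3 against T1, 64.7% were higher with TPM as deposited, 50.3% with median-of-ratios scaling and 45.2% with quantile normalization, and these settings called 6 and 5 of the 10 genes, all higher. Quantile normalization moved the median of all genes from 0.088 to -0.0381 on the log2 scale.

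**Figure D4:**
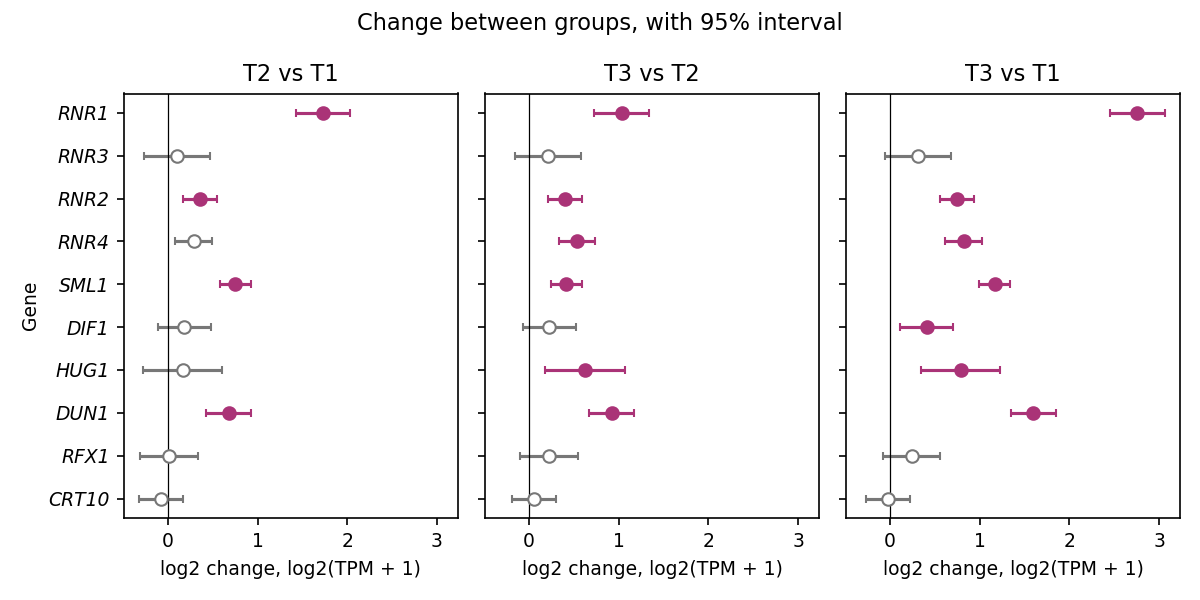
Log2 change of each gene between groups on the log2(TPM + 1) scale, with 95% intervals from limma; filled points have an adjusted p under 0.05 over all 6046 genes tested and open points do not. From T1 to T3, RNR1 is at 2.76 and DUN1 at 1.60, while CRT10 is at -0.02 and its interval spans 0.

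In order of mean level over the 6 libraries, SML1 led, followed by RNR4, RNR2, RNR1, DIF1, DUN1, CRT10, RFX1, HUG1 and RNR3. RNR4 was above RNR2 in each of the 6 libraries. The last 3 were not separated in every library, since HUG1, RNR3 and RFX1 all lay between 3.04 and 8.27 TPM. In T1, RNR1 was below DIF1, with its libraries on either side of those of CRT10, while in T2 and T3 it was above all of the 10 but SML1, RNR4 and RNR2.

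Genes whose levels ran most like those of the subunits were sought among 5059 or 5060 other protein-coding genes whose mean was 10 TPM or more. Likeness was the root mean square difference of centred log2(TPM + 1) values over the 6 libraries. CLB2, a mitotic cyclin gene, was nearest to RNR1 at 0.0617, while RNR1 itself varied by 1.15 about its mean. CLB2 lay at 6.94 and 10.8 TPM in T1, 27.3 and 33.5 TPM in T2, and 59.8 and 59.6 TPM in T3. Like RNR1, it was higher in replicate B than in replicate A of both T1 and T2. Choice by all 6 libraries favours such a match, so it adds no support. GPM2, similar in sequence to phosphoglycerate mutase genes (0.131), ACM1, an inhibitor of the anaphase-promoting complex (0.148), and YBR071W (0.162) came next. Nearest to RNR2 were GLO4, a mitochondrial glyoxalase gene (0.0223), HHF2, a histone H4 gene that has a near-identical copy and is uncertain for that reason (0.0289), FBP26, a fructose-2,6-bisphosphatase gene (0.0291), and MFM1, a mitochondrial magnesium transporter gene (0.0349). RAD24, a checkpoint gene of the clamp loader (0.0251), PUS5, a pseudouridine synthase gene (0.0312), CDC7, the gene of a kinase that fires replication origins (0.0343), and ATG21, an autophagy gene (0.0384), were nearest to RNR3, which varied by only 0.166. Such likeness rests on 6 libraries that share their groups and was not tested.

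Among 16 other genes of deoxyribonucleotide supply, 6 rose from T1 to T3, 2 fell and 8 did not pass, with a median log2 change of 0.14. The 6 that rose are 37.5% of the list, near the 31% of all genes called higher in that comparison. GRX1, a glutaredoxin gene of the kind that can reduce the enzyme, had the largest rise, from 192.1 ± 18.4 to 543.1 ± 13.2 TPM (SD, n = 2), 2.82-fold (limma adjusted p = 2.68e-08). YNK1, the nucleoside diphosphate kinase gene, rose 2.44-fold, and CDC21, the thymidylate synthase gene, rose 2.39-fold (named after its values were seen). ADK1, an adenylate kinase gene, and DFR1, the dihydrofolate reductase gene, fell, with log2 changes of -0.30 and -0.29 (limma adjusted p = 0.00772 and 0.0357). TRX1, a thioredoxin gene and the most abundant of the list, lay at 607.3 TPM in T1 and 620.5 TPM in T3 and did not pass (limma adjusted p = 0.813).

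Of 17 genes of checkpoint sensors, mediators, kinases and Rad53 phosphatases, 2 rose from T1 to T3, 1 fell and 14 did not pass. Their median log2 change was 0.01. The share that rose was 11.8%, beside 31% of all genes. CSM3, a mediator of the checkpoint at replication forks, rose 1.57-fold, and RAD24 rose 1.24-fold, close to the threshold (limma adjusted p = 0.0452). PTC2, a phosphatase gene that acts on Rad53, fell, with limma adjusted p = 0.00791 and a log2 change of -0.34, and PTC3, the most abundant of the list, one of -0.12 that did not pass (0.304). MEC1 and RAD53, kinase genes that act above DUN1, had means of 5.04 and 7.16 TPM in T1 and 5.78 and 9.35 TPM in T3. Neither passed (limma adjusted p = 0.419 and 0.0771). Both were named for their place in the pathway after their values were seen. DUN1 itself rose 3.02-fold in the same comparison.

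Of 16 other regulators of the subunit genes or of the location of the proteins, 3 rose, 4 fell and 9 did not pass, with a median log2 change of -0.06. The share that rose was 18.8%, again beside 31%. WTM1, whose product anchors the small subunits in the nucleus, went from 106.1 ± 9.47 to 272.3 ± 21.2 TPM (SD, n = 2) and rose 2.55-fold (limma adjusted p = 1.99e-07). Its paralogue WTM2 fell, with a log2 change of -0.58 (limma adjusted p = 0.000881). TUP1, a corepressor gene that acts with Rfx1, lay at 99.4 and 110.8 TPM in T1 and at 83.0 and 68.9 TPM in T3, and fell (limma adjusted p = 0.00463, log2 change -0.47). Its partner gene CYC8, named after its values were seen, fell too (limma adjusted p = 0.00887, log2 change -0.42). TIS11, whose product lowers mRNAs during iron shortage, rose 1.63-fold. MBP1 and SWI6, the genes of MBF, had log2 changes of -0.02 and -0.12 and did not pass (limma adjusted p = 0.887 and 0.439), and were named for that role after their values were seen.

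Of 10 genes of iron cofactor assembly, 4 rose (40%, beside 31% of all genes), 0 fell and 6 did not pass, with a median log2 change of 0.19. ISU1, an iron-sulphur scaffold gene, rose 1.47-fold and YFH1, the frataxin gene, 1.40-fold. BOL2, also named FRA2, was the most abundant of them at 462.9 TPM in T1 and 519.0 TPM in T3 and did not pass (limma adjusted p = 0.198). Of 33 DNA replication genes with expression at the G1 to S transition, 20 rose (60.6%, beside 31% of all genes), 0 fell and 13 did not pass, with a median log2 change of 0.37. POL30, the gene of the sliding clamp, rose 3.39-fold on the log2(TPM + 1) scale, from 20.6 ± 0.54 to 72.3 ± 3.46 TPM (SD, n = 2). CLB6, an S-phase cyclin gene, rose 2.70-fold. ASF1, a histone chaperone gene and the most abundant of the list, rose 1.46-fold. By step, 9 of the 33 rose from T1 to T2 and 4 from T2 to T3, and 0 fell in either. These are 27.3% and 12.1% of the list, beside 11.9% and 15.8% of all genes tested. The fold of RNR1 from T1 to T3, 6.77, was larger than that of each gene of this list.

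Of 18 other genes that respond to DNA damage, 11 rose (61.1%, beside 31% of all genes), 1 fell and 6 did not pass, with a median log2 change of 0.36. DDR48 rose 1.59-fold and UBI4, the polyubiquitin gene, rose 1.27-fold. RAD23, a gene of nucleotide excision repair, fell, with a log2 change of -0.47. RNR3 and HUG1, members of the damage response by their known induction, had log2 changes of 0.31 (not past the test) and 0.79 in this comparison. Neither of them exceeded 7.88 TPM in any library. The part of a damage response in these changes was not tested.

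The cyclin genes and their inhibitors describe the cultures in which these levels were measured. Of 14 such genes, 10 rose from T1 to T3 (71.4%, beside 31% of all genes) and 0 fell. The G1 cyclin genes CLN1 and CLN2 rose 1.54-fold and 1.22-fold, and CLN3 did not pass (limma adjusted p = 0.155). All 3 were present in all libraries, at 11.6 to 75.2 TPM. PCL1, PCL2, CLB5, CLB6 and CLB2 rose 7.07-fold, 1.68-fold, 1.60-fold, 2.70-fold and 6.27-fold. CLB1, at 3.20 TPM in T1 and 5.15 TPM in T3, rose 1.49-fold. CLB3, CLB4 and FAR1 did not pass (limma adjusted p = 0.128, 0.446 and 0.474). SIC1, an inhibitor gene of the cyclin-dependent kinase, rose 1.66-fold, and CDC28, the kinase gene itself, rose 1.87-fold. The part of a shift in cell cycle stage in the levels of RNR1 was not tested.

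**Figure D5:**
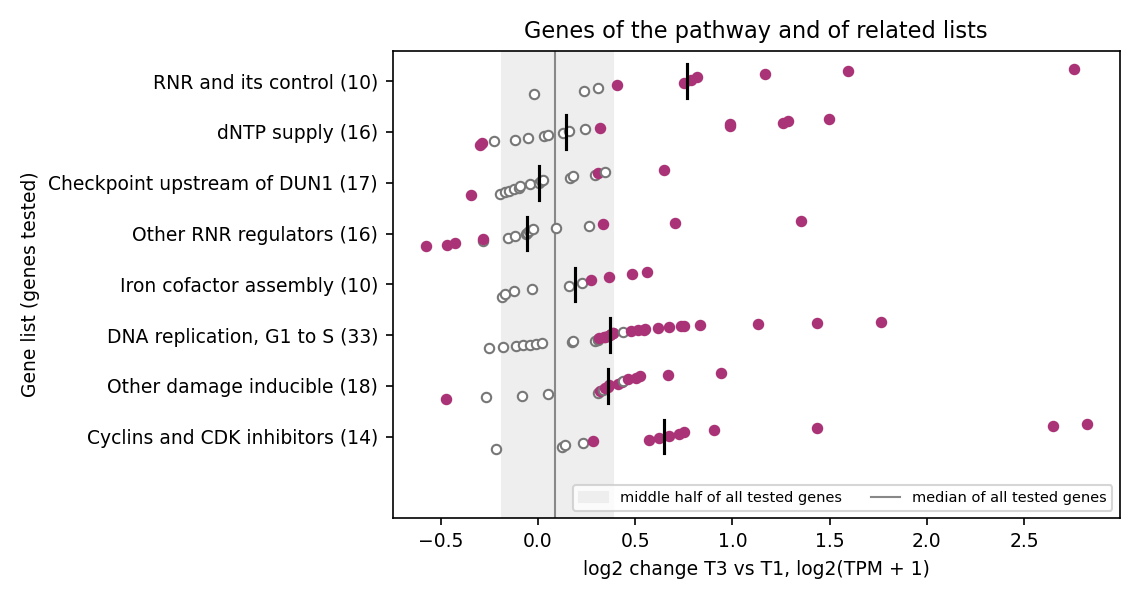
Log2 change from T1 to T3 on the log2(TPM + 1) scale for the 10 genes and for 7 related lists; filled points have an adjusted p under 0.05, black ticks are list medians, and the grey band and line are the interquartile range and the median of all 6046 genes tested. The 10 genes have a median of 0.77, the cyclin list 0.65 and the checkpoint list 0.01.

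The libraries held 17872645 to 23534512 fragments on genes, as recovered from the TPM values. The Spearman correlation of replicates across genes came to 0.995 for T1, 0.997 for T2 and 0.996 for T3. The 4 markers of alpha cells lay at 19.5 TPM or more and the 6 markers of a cells at 11.2 TPM or less in all 6 libraries. In T3 the 4 alpha markers summed to 2040 and 1975 TPM, below 3849 and 3899 TPM in T1.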

How the data were processed

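The authors deposited 1 table of TPM values for 6 libraries, per the file's name and headers, and every library adds up to the same total. Per the submitters' processing notes, STAR 2.5.2b, featureCounts, Subread 1.5.2 and genome build R64 were used; annotation, strand and multi-mapping settings are not given in the sources used here. If strand was ignored in counting, reads of a gene and of an opposite-strand transcript cannot be told apart.

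The table had 6401 entries, 1 without a name (4.74 to 5.83 TPM, left out). Of 6400 names, 6081 matched the RefSeq annotation of R64. TPM times length was divided by a factor that gave whole fragments (within 0.1) for 99.8 to 99.9% of open reading frames with at most 500 fragments. Fragment totals and intervals cover counting error only.

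For the 6046 genes averaging 1 TPM or more, log2(TPM + 1) was fitted in limma 3.58.1 (R 4.3.3) with 3 group means over all 6 libraries (degrees of freedom: 3 residual, 10.7 prior). Every fold given for a gene is on this scale, which shrinks the changes of genes at low levels beside ratios of TPM. All tests were two-sided, with Benjamini-Hochberg adjustment over all genes at 0.05. On simulated data for T3 against T1 among 6046 genes, 38% of genes changed 1.25-fold, 94% of those changed 1.5-fold and 100% at 2-fold were recovered. For T2 against T1 these shares were 40%, 100% and 100%, and for T3 against T2 they were 14%, 90% and 100%. Changes were placed in only 50 genes per fold, all above about 10 TPM, with normal noise at the spread that limma fitted. Among the unchanged genes, 9 to 14 were called in a comparison. In the data 48% of genes were called in T3 against T1, and the adjustment depends on how many genes change. The recovered shares may therefore not hold for the data. HUG1, RNR3 and RFX1 lie below 10 TPM, so the recovered shares do not cover them. Biopython 1.88 aligned paralogues, and matplotlib 3.10.9 drew plots.

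The members and lists were chosen with earlier results of these data known. Outside the 10 genes, the text names each list's most abundant gene and, past the threshold in T3 against T1, its 2 strongest rises and 2 strongest falls, all cyclin-list genes, and the 4 genes nearest to RNR1, RNR2 and RNR3. Others are marked, and 1 gene that this rule takes is not reported here. Alternatives were the pseudocount, the filter, rescaling, the variance trend, the groups fitted, a replicate block and leaving out each library.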

Additional observations from a re-analysis of the deposited data

How the results depend on the processing

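Over 15 alternatives (14 for the difference between steps), the rises of RNR1, SML1 and DUN1 passed in each of the 3 pairs of groups, and those of RNR2 and RNR4 passed in T3 against T1; the values of lost or gained calls of other genes stand in the report. Genes called in T3 against T1 ran from 2204 to 2910 when 1 library was left out, in T2 against T1 from 650 to 1097, and in T3 against T2 from 641 to 1687. For the difference between steps, 65 genes were called. That number was 17 without a filter, 113 at a mean of at least 10 TPM, 20 after rescaling by the median of ratios, 10 after quantile normalization, 15 without the abundance trend and 18 to 254 with 1 library left out, where 0 to 1 of the 10 genes passed. With the replicate letter as a block it was 43, and 2819 genes were called in T3 against T1. Deviations of same-letter libraries from their group means had correlations of 0.132, -0.0578 and -0.15 between pairs of groups. These values are small, but they cannot tell whether libraries of the same letter were paired, and the labels do not say. For the 10 genes the block added RNR4 in T2 against T1 and lost HUG1 in T3 against T2. Without a pseudocount the log2 ratio of RNR3 to RNR1 was -3.29 in T2 and -4.09 in T3.

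Only changes that did not pass the test switched sign. With median-of-ratios scaling and then with quantile normalization, RFX1 in T2 against T1 was at -0.0026 and -0.0473, CRT10 in T3 against T2 at -0.0169 and -0.0605, and, for the difference between steps, RNR2 at -0.0112 and -0.0245 and DIF1 at -0.0110 and -0.0344. With 1 library left out, CRT10 ran from -0.0822 to 0.0437 in T3 against T1 and from -0.0076 to 0.12 in T3 against T2. In T2 against T1, RFX1 ran from -0.0371 to 0.0675, HUG1 from -0.17 to 0.50 and RNR3 from -0.0765 to 0.28. For the difference between steps, RNR2 ran from -0.0590 to 0.15, RNR3 from -0.24 to 0.46 and DIF1 from -0.15 to 0.24. The causes were not tested. A group left with 1 library is assumed to vary like the others. Without a T1 library, and in the fit to T2 and T3 alone, limma's prior had no limit on its degrees of freedom. The p-values of those fits may be too small. HUG1, RNR3 and RFX1 fall below a mean of 10 TPM and gave no value under that filter. The fit to the 2 groups compared gives no value for the difference between steps.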

Other observations

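Genes that share the 6-base strings of the RNR1 and RNR2 promoters were counted as well. Of 318 tested genes with at least 1 MCB core in the 500 bases before the start codon, 136 were called higher in T3 than in T1 (42.8%) and 28 lower (8.81%), with a median log2 change of 0.21. Of 33 with at least 2 MCB cores, RNR1 among them, 18 were called higher (54.5%) and 0 lower. Of 808 with at least 1 X-box half-site, 272 were called higher (33.7%) and 123 lower (15.2%). Of 57 with at least 2 half-sites, RNR2 and HUG1 among them, 22 were called higher (38.6%) and 10 lower (17.5%). Among all 5787 tested genes with such a window, 31.4% were called higher and 16.8% lower, with a median of 0.09. By step, genes with at least 1 MCB core were called higher in 17% of cases from T1 to T2 and 16% from T2 to T3, beside 11.9% and 16.1% of all genes with a window. With at least 2 MCB cores these shares were 42.4% and 27.3%, and with at least 1 X-box half-site 12.3% and 17.5%. With at least 2 half-sites they were 7.02% and 29.8%. These counts were made after the values of the 10 genes were seen, and no set was tested against the others.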
